A study of Homo sapiens with 4 samples.

Results

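The custom array carried 99 probes named for mouse or rat miRNAs whose name was also carried by a human probe, 69 of them mouse-named and 30 rat-named, out of 1406 probe names. They were taken by name alone: a mouse (mmu) or rat (rno) prefix, a miRNA name equal to that of 1 of the 455 matched human miRNA probes, and no mismatch tag. The 99 probes met 91 human names, because 8 names had a probe from both rodents. The arrays were hybridized with Cy3-labelled total RNA, 10 µg each, from LAPC-4 cells, an established line from a human prostate tumour that expresses the androgen receptor. R1881 is a synthetic androgen. The groups were the untreated cells at 0 nM and cells given 0.1, 1 or 10 nM R1881, all after 24 hours in androgen-free medium with 10% charcoal-stripped serum. Each group was 1 sample on 1 array. The time in R1881 is not given in the sources used. The hybridized RNA was human throughout, also on the rodent-named probes.

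A mature miRNA is a short RNA that guides Argonaute proteins to messenger RNAs, mainly through its seed, bases 2 to 8. Many mature miRNAs are the same in mouse, rat and human, while others differ by a base or by the position of an end, and early catalogues listed each species separately. An array oligonucleotide binds a labelled miRNA through base pairing along its length, so its brightness depends on the pairing and the base composition as well as on the amount of RNA. A ratio between 2 different oligonucleotides therefore describes the probes and is not a ratio of RNA amounts.

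The human mature forms of the miRNAs on which the comparison turns are shown first, from RefSeq for GRCh38.p14, 5′ to 3′, with the seed in capitals. The letters of the probes and of the rodent miRNAs were not used here. The current RefSeq form may differ at an end from the one that the array was designed on.
hsa-let-7a-5p: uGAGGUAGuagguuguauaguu
hsa-let-7f-5p: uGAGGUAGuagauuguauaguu
hsa-miR-20b-5p: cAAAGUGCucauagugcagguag
hsa-miR-106a-5p: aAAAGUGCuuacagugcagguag
hsa-miR-93-5p: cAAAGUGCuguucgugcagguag
hsa-miR-192-5p: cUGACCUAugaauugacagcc
hsa-miR-215-5p: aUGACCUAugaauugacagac
hsa-miR-204-5p: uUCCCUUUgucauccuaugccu
hsa-miR-211-5p: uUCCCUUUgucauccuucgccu
hsa-miR-99a-5p: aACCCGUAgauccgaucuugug
hsa-miR-345-5p: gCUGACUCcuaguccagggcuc
hsa-miR-431-5p: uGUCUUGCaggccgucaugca
hsa-miR-134-5p: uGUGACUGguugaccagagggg
hsa-miR-494-3p: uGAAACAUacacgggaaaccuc

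Within this set 4 seeds were shared. The human let-7a and let-7f forms had the seed GAGGUAG and differed at 1 of 22 positions, written G12A with positions counted from the 5′ end and the let-7a base first. miR-192 and miR-215 shared UGACCUA and differed at 2 of 21 positions, C1A and C20A from miR-192 to miR-215. miR-204 and miR-211 shared UCCCUUU and differed at A17U and U18C from miR-204 to miR-211. miR-20b, miR-106a and miR-93 shared AAAGUGC, with 3 of 23 positions different between miR-106a and miR-20b and 3 between miR-93 and miR-20b. In GRCh38.p14 miR-345-5p lies at chr14:100307876-100307897 on the plus strand, with no other gene spanning it in the RefSeq table. miR-431-5p lies at chr14:100881026-100881046 on the plus strand, within the span of RTL1. miR-192-5p lies at chr11:64891203-64891223 on the minus strand within MIR194-2HG, a non-coding host gene, and miR-215-5p at chr1:220117916-220117936 on the minus strand within the span of IARS2. miR-20b-5p lies at chrX:134169850-134169872 on the minus strand within MIR106AHG. miR-211-5p lies at chr15:31065095-31065116 on the minus strand within the span of TRPM1, and miR-99a-5p at chr21:16539101-16539122 on the plus strand within MIR99AHG.

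A probe was counted as detected where its mean signal, in intensity units on a linear scale, was above the 95th percentile of the array's 2-mismatch probes, which copy a matched probe with 2 bases changed. These limits were 117.6, 135.5, 138 and 143.5 at 0, 0.1, 1 and 10 nM. Of the 99 rodent-named probes, 26 (26.3%) were detected on at least 1 array and 22 (22.2%) on all 4. The matching shares on at least 1 array were 30.8% of the 91 namesakes, 29.9% of all 455 human probes and 6.6% of 576 mismatch probes. The 124 rodent-named probes without a human namesake had 16.1%. Of the epithelial miRNAs miR-200b, miR-200c, miR-141, miR-205 and miR-375, 4 of 5 were detected on at least 1 array and 3 on all 4. miR-375 passed the limit on the untreated array alone, with 140.75, 121.75, 126.5 and 133.5 units from 0 to 10 nM. miR-205, a marker of basal cells, was on no array above the limit. Of 12 human probes for blood, stromal, muscle, liver and neural miRNAs, 2 were detected, miR-206 and miR-128a, on all 4 arrays. miR-451, miR-143 and miR-145, the defining blood and stromal miRNAs of that list, were not above the limit.

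In 65 of the 99 pairs neither probe was detected, so that both readings were background, and there the rodent-named probes lay between 70 and 135.75 and the human ones between 66.75 and 137.5. In the other 34 pairs at least 1 probe was detected, and 19 of these stayed within 0.32 log2 units of equality on every array. Over all 99 pairs 74 did, so closeness by this line was not particular to detected pairs. Both probes were detected in 23 pairs, each on at least 1 array, a choice that leaves out those in which only 1 probe gave a signal. The pairs of miR-155, miR-326 and miR-383 had readings under the limit on some arrays, and these readings are included below. Over the 23 pairs the median of the mean log2 ratio of rodent-named to human signal was 0.03, that is 1.02-fold, and 17 pairs stayed within the same distance. Background was not subtracted from these signals, which draws the ratio of dim pairs toward equality. The median of the 2-mismatch probes was 84.5, 82, 87 and 76 units from 0 to 10 nM. The median SD of a pair's log2 ratio over the 4 arrays was 0.073, a spread that mixes dose with array error because no dose was repeated. Across these 23 pairs Pearson's r of log2 signals was between 0.96 and 0.97 on the 4 arrays and Spearman's rho between 0.94 and 0.97. The points of each array share 1 hybridization, some share a human probe, and no p is given.

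Of the 8 pairs with the brightest human probe, those of miR-494, miR-93, miR-106a and miR-224 read close together. Those of let-7a, let-7f and miR-20b, the last with 2 rodent-named probes, differed more and are given further on. The mouse-named miR-494 probe had 898, 1108, 1136 and 1433 units at 0, 0.1, 1 and 10 nM, against 921, 1060.5, 1197.75 and 1403.25 for the human probe, a mean log2 ratio of −0.005 ± 0.063 (SD over 4 arrays). miR-494 is encoded in the imprinted DLK1-DIO3 cluster. Its 2 probes differed in both directions, depending on the array. The mouse-named miR-93 probe had 512.5, 551.75, 574 and 730.25 units, against 483.25, 516.5, 539.75 and 698.5 for the human one. The mouse-named probe was slightly above on each array, with a mean log2 ratio of 0.083 ± 0.013. miR-93 is a paralog of the miR-17-92 oncogenic cluster, as is miR-106a, whose mouse-named probe read 593.25, 732, 836.5 and 951.25 units against 616, 789.25, 811.75 and 1047.5. For miR-224 the mouse-named probe had 419.5, 427.25, 396.25 and 526.75 units and the human one 453.75, 473, 431 and 568.5, a mean log2 ratio of −0.123 ± 0.017. miR-224 lies within GABRE, a GABA receptor subunit gene. Its mouse-named probe was below the human one on each array, by nearly the same factor.

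Of the 34 pairs with a detected probe, 4 (11.8%) had the rodent-named probe at least 1.5-fold dimmer in measured signal on every array, and 1 (2.94%) had it at least 1.5-fold brighter. For scale, the 2-mismatch probes of human miRNAs were that much dimmer than their matched probe in 92 of 139 pairs (66.2%) and brighter in 3 (2.16%). The 4 dimmer probes were rno-miR-345, mmu-miR-192, rno-miR-20b and mmu-miR-215, and the brighter one was mmu-miR-431. Of these 5 pairs only rno-miR-20b had both probes detected. In the others the dimmer probe was under the limit, so the true ratio has only a bound, which fell short of 1.5-fold on some arrays for miR-192 and on all 4 for miR-215. These are counts past a fold with no test, since each dose had 1 array.

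The rat-named miR-345 probe stood furthest below its namesake. It had 88.25, 85.75, 93.5 and 88.25 units at 0, 0.1, 1 and 10 nM, under the limit on every array, against 285, 330, 357.25 and 461.5 for the human probe, which was above the limit on every array. The mean log2 ratio was −1.99 ± 0.29. Because the rat-named probe was undetected, the human probe was at least 2.42-, 2.43-, 2.57- and 3.20-fold brighter, against the lowest detected miRNA probe of each array. The 2-mismatch probe of human miR-345 read 80, 80.5, 81.5 and 77 units, so the rat-named probe lay near the mismatch level.

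The mouse-named probes of miR-192 and miR-215 were also the dimmer ones. These miRNAs share a seed and are known as p53-responsive in several human cell types. The mouse-named miR-192 probe had 75, 76.25, 79.25 and 73.75 units, against 240.75, 225.5, 190.5 and 216 for the human probe, a mean log2 ratio of −1.52 ± 0.18. The mouse-named probe was under the limit and the human one above it on all 4 arrays, and the human probe was at least 2.04-, 1.66-, 1.37- and 1.497-fold brighter. The human probe's 2-mismatch partner read 88, 93, 95 and 102 units, above the mouse-named probe on each array. The mouse-named miR-215 probe had 94.75, 96.25, 96.5 and 96.75 units, against 150.5, 154.75, 145 and 150.25 for the human probe. It too was undetected throughout while the human probe was detected throughout. Its measured log2 ratio was −0.64 ± 0.04, just past the 1.5-fold line, but the bound on the human excess was 1.28-, 1.14-, 1.05- and 1.04-fold.

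For miR-20b, an X-linked member of the miR-17 seed family, the mouse- and rat-named probes stood on opposite sides of the human one. The rat-named probe had 226.25, 253.5, 291.75 and 313 units and the mouse-named probe 449, 661.25, 742.5 and 754.5, against 403.25, 499.25, 539.25 and 620.75 for the human probe. All 3 were detected on every array. The rat-named probe had a mean log2 ratio of −0.92 ± 0.07 to the human probe and the mouse-named one 0.33 ± 0.14. The mouse-named probe was 2.37-fold above the rat-named one as a mean over the arrays, and above it on all 4. In unscaled intensity all 3 probes read higher at each higher dose. The mouse probe's own 2-mismatch partner read between 73 and 92 units.

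Among the other 7 names with both rodents, the mean log2 ratio of mouse- to rat-named probe lay between −0.15 and 0.07. Only miR-346 among these was detected, with 140.75, 174.75, 177.75 and 196 units on the mouse-named probe and 152, 181.75, 184.25 and 190 on the rat-named one, against 130, 175.25, 171.75 and 188 for the human probe. The 3 readings nearly coincided. The 2-mismatch probes of miR-346 were nearly as bright, however, at 151.5, 172, 164.5 and 186.5 units for the mouse-named and 141, 175.5, 161.5 and 183.5 for the human probe. The mouse-named match was below its own mismatch probe on the untreated array. The 2 rodent-named miR-151 probes were undetected, and the human one was detected on the untreated array alone, where the limit was lowest. Its signal was nearly level, at 123, 118.75, 122.75 and 122.5 units from 0 to 10 nM.

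mmu-miR-431 was the pair in which the rodent-named probe was brighter. It had 180.25, 245, 293.75 and 331.5 units at 0, 0.1, 1 and 10 nM, above the limit on every array, against 77.75, 75.5, 74.5 and 75.25 for the human probe, below it on every array. The measured log2 ratio was 1.76 ± 0.41, and the mouse-named probe was at least 1.53-, 1.80-, 2.12- and 2.30-fold brighter. miR-431 is encoded in the DLK1-DIO3 cluster, antisense to RTL1. The array held no 2-mismatch partner for the mouse-named probe, and that of the human probe read 84, 73.5, 81 and 74 units. The spike probe Bio B, labelled as a negative control, had 362.25, 473.25, 525.5 and 604.75 units at the same doses, and Bio C had 528.5, 592.25, 609 and 774.5. The 5 Lambda spike probes, at 72.75 to 125 units, read between 0.820 and 0.979 of their untreated signal at 10 nM. The part of any such shift in the miR-431 reading was not tested.

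mmu-miR-134, named for a brain-enriched miRNA of the same cluster, was also detected on all 4 arrays while its namesake was not. It had 152, 173, 181 and 223.25 units, against 99.25, 109.75, 125 and 137.5 for the human probe, a mean log2 ratio of 0.63 ± 0.07. At 1 nM the ratio was 1.45-fold, just short of the 1.5-fold line. Its own 2-mismatch probe read higher than the matched probe on every array, at 168, 199, 204 and 251.5 units. Of the 14 detected members that had a mismatch partner of their own, 12 (85.7%) were brighter than it on every array, and miR-134 and mouse-named miR-346 were the exceptions. Among detected human probes the share was 91.5%.

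In the let-7 and miR-99a pairs the mouse-named probe was the dimmer on every array, by an amount that varied between arrays. The mouse-named let-7a probe had 1492.5, 1467, 1493.5 and 1833.25 units, against 2384, 2208.25, 2020.25 and 2437.5 for the human probe, a mean log2 ratio of −0.53 ± 0.13. let-7a belongs to a family known for repressing growth genes such as RAS and HMGA2. Its mouse-named probe was below the human one on all 4 arrays, by 1.60-fold without R1881 and 1.33-fold at 10 nM. The mouse-named let-7f probe had 792.5, 942.5, 961.75 and 770.5 units, against 996, 1054.25, 1236 and 1060.5, with a mean log2 ratio of −0.33 ± 0.12. The mouse-named miR-99a probe had 317.75, 310.5, 251.25 and 270 units, against 533.5, 489.75, 354.75 and 418.75, with a mean log2 ratio of −0.63 ± 0.10. It was lower on every array and fell short of the 1.5-fold line only at 1 nM, where the human probe was 1.41-fold brighter. The mismatch partners of mouse-named let-7a and let-7f read between 63 and 80 units, so these probes were far above their mismatch level.

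In other pairs the human probe was detected on all 4 arrays and the rodent-named one on none. Besides miR-345, miR-192 and miR-215 these were miR-483 and miR-17-3p, which makes 5. mmu-miR-483, whose human namesake lies in the IGF2 gene, had 86.75, 107.25, 106.75 and 115.75 units, against 118, 148.25, 140.25 and 162.75, with a mean log2 ratio of −0.45 ± 0.04. mmu-miR-17-3p, the passenger arm of miR-17, had 105.5, 105, 118.25 and 102 units, against 130.25, 135.75, 149.25 and 169. Both human probes were only just above the limit, and at least 1.13- and 1.17-fold above the lowest detected probe at 10 nM. In the reverse direction mmu-miR-134 and mmu-miR-431 make 2.

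The next pairs had a mean rodent excess under 1.5-fold, in signal without background subtraction. rno-miR-422b had 174.25, 205.75, 226.5 and 259 units, against 149, 147, 173 and 202 for the human probe. Its mean log2 ratio was 0.36 ± 0.11. mmu-miR-221 had 244.5, 286.75, 276.25 and 314.5 units, against 231.5, 256.75, 261.25 and 285. miR-221 targets the cell-cycle inhibitor p27, and its mouse-named probe was 1.08-fold above the human one as a mean. mmu-miR-31, mmu-miR-423 and mmu-miR-487b had mean log2 ratios of 0.10, 0.10 and 0.11, and mmu-miR-487b passed the limit at 10 nM alone. It read 102.25, 126.75, 131.5 and 146.25 units. The human miR-487b mismatch probe was nearly as bright, at 94, 127.5, 123.5 and 136.5 units, and above mmu-miR-487b at 0.1 nM. For mmu-miR-155, named for an immune-cell miRNA, the readings were 130.25, 131.5, 133.75 and 144.25 units against 125.75, 135.5, 129.75 and 139.5, with its own mismatch probe at 112.5, 119, 126 and 139.5.

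Among the lists used, the largest block of members came from that of the DLK1-DIO3 genomic cluster, which was also the longest list. It held 25 of the 99 (25.3%) against 35 of all 455 human probes (7.69%). Of the 25 members 5 were detected, namely miR-134, miR-431, miR-485-3p, miR-487b and miR-494, and 3 of the 35 human probes were. The shares over all probes were 26.3% of the 99 members and 29.9% of the 455 human probes. As given above, the mismatch probe was brighter than the match for mmu-miR-134, and the human one nearly as bright as mmu-miR-487b. mmu-miR-485-3p had 132.5, 180.5, 179.5 and 190.25 units, against 160.5, 180.25, 151.25 and 173 for the human probe. The human miR-485-3p mismatch probe was about as bright, at 128, 175, 159 and 171.5 units. The let-7 list held 2 members, both detected, and the miR-17-92 list 6, of which 4 were detected. In the neural list 1 of 5 was detected, miR-134, in the blood list 1 of 3, miR-155, and in the muscle list 0 of 2. The miR-99 and miR-125 list had miR-99a as its only member, and the miR-29 and miR-30 list had none.

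Dose was then read on the members after normexp background correction and quantile normalization, as the log2 ratio of a probe's value with R1881 to its value at 0 nM. No p can be given with 1 array per dose. The 3 ratios of a probe share the untreated array, and a rodent-named probe and its namesake share all 4 arrays, so the values stand side by side with no measure of agreement. At 0.1 nM 0 of the 26 detected members were 1.5-fold higher and 0 lower, against 1.5% and 0% of the 200 detected matched miRNA probes of any species and 3.57% and 0% of the 28 detected namesakes. At 1 nM 1 was higher and 1 lower (3.85% each), against 3% and 1.5% of the 200 probes and 3.57% each of the namesakes. At 10 nM 2 were higher (7.69%) and 1 lower (3.85%), against 4% and 2% of the 200 probes and 3.57% each of the namesakes. The counts are too small to set the members apart. The members' median log2 ratio was 0.04, 0.07 and 0.07 at 0.1, 1 and 10 nM, against −0.05, −0.03 and −0.04 over the 200 probes. The level rests on the scaling: with normexp but no scaling the members' median was 0.25, 0.27 and 0.54, and 11 members were 1.5-fold higher at 10 nM. The share of the 200 probes without scaling is not given here, so that count does not set the members apart from an array-wide level.

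The member past the line at 1 nM and 10 nM on the lower side was mmu-miR-99a, with log2 ratios of −0.28, −0.60 and −0.70, beside −0.30, −0.87 and −0.87 on the human probe. In plain intensity the mouse-named probe was at 0.977, 0.791 and 0.850 of its untreated value. It was not 1.5-fold lower at either dose under median scaling or with no scaling, nor at 1 nM under the other scalings or with no background correction. Those on the higher side were mmu-miR-431, with 0.36, 0.64 and 0.64, beside 0.01, −0.08 and 0.12 on the undetected human probe, and at 10 nM mmu-miR-326, with 0.45, 0.56 and 0.61, beside 0.38, 0.47 and 0.46. mmu-miR-326 was undetected at 0 and 0.1 nM, so its excess over untreated at 10 nM is a bound of at least 1.14-fold. Under cyclic loess 0 members were 1.5-fold higher at 10 nM.

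A factor common to every signal of an array cancels in a within-array ratio, so the change with dose was read without scaling between arrays. Background was not subtracted, so a factor acting on signal but not on background does not cancel against a background reading. Between 10 nM and untreated the measured ratio of rodent-named to human signal was 1.5-fold higher in 1 of 34 pairs (2.94%) and 1.5-fold lower in 2 (5.88%). The corresponding shares for mismatch over matched human probes were 2.88% and 29.5%. The higher one was miR-431, by 0.93 log2 units. The lower ones were miR-211, by −0.78, and miR-345, by −0.70. At 10 nM the human miR-345 probe was at 1.62-fold of its untreated signal unscaled, and 0.30 log2 units above it after quantile normalization. The rat-named miR-345 probe read 88.25 units on both arrays. The part of array-wide signal differences in these shifts was not tested. In each of the 3 pairs 1 probe stayed under the limit throughout, and for miR-211 both were under it untreated. These differences therefore set a detected probe against a background reading, and a 1.5-fold shift of the ratio is not established by them.

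In the miR-211 pair the mouse-named probe had 81.75, 77, 92.5 and 90.5 units at 0, 0.1, 1 and 10 nM, against 86, 135.75, 129.5 and 164 for the human probe. miR-211 is a melanocyte-enriched miRNA within TRPM1. Both probes were under the limit without R1881, and of the 2 only the human one passed the limit, at 0.1 and 10 nM. At 10 nM it was at least 1.14-fold above its mouse-named counterpart. The mouse-named probe for miR-204, which shares the seed, had 86, 78.5, 85.25 and 80 units, against 80.25, 82, 87.25 and 84. Neither miR-204 probe was detected. For miR-192 the quantile-normalized log2 ratio to untreated, as a mean over the 3 doses, was −0.46 on the human probe and 0.11 on the undetected mouse-named one. The level on the human probe rests on the scaling. With normexp but no scaling its ratios were −0.08, −0.37 and −0.11, and its plain intensity was at 0.937, 0.791 and 0.897 of untreated.

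Smaller shifts of the pair ratio followed for miR-485-3p and let-7a, which were 0.41 and 0.26 log2 units higher at 10 nM than untreated. The human miR-485-3p mismatch probe was about as bright as the matched probes, as given above, so that ratio is not shown to be specific signal. For miR-17-3p the shift was −0.42, with the mouse-named probe under the limit on every array. In let-7a the human probe read 2384 units untreated and 2437.5 at 10 nM, whereas the mouse-named one was at 1.23-fold of its untreated signal. Against the untreated array after quantile normalization, mouse-named let-7a had −0.15, −0.10 and −0.15, beside −0.35, −0.44 and −0.56 on the human probe. These levels rest on the scaling. With normexp but no scaling the mouse-named probe had −0.02, 0.001 and 0.31, and the human one −0.11, −0.24 and 0.04.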

How the data were processed

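Mean spot intensities, 1 per probe name, were deposited by the authors on a linear scale without background subtraction, per the file headers and the values. The deposited value table of the series holds the same intensities minus the median of the 2-mismatch probes of each array (84.5, 82, 87 and 76 from 0 to 10 nM), and leaves blank every probe below 2 times that median. The sources used here name no scanner, image software or probe letters. Pair ratios were taken within each array from the deposited intensities. The 28 mismatch probes listed at 0 on some array were left out of the detection limits, the mismatch shares, the pairs of mismatch and matched human probes and the ratios to untreated. For ratios to the untreated array, limma 3.58.1 (R 4.3.3) applied normexp with offset 50 and quantile normalization. A bound of the form "at least" divides the detected probe by the higher of the undetected one and the lowest detected matched miRNA probe of that array. Named pairs were the brightest, the lowest and highest in ratio, those with 1 probe detected, those with both rodents, those whose ratio moved most between 10 nM and untreated, and the brightest of each list. miR-204, added for its seed, and mmu-miR-326, which passed a count, were named after their values were seen. Members and lists were chosen with earlier results of these data known. Array names of 32 miRNAs were tied to current arm names from general knowledge, and 29 of these were taken from the RefSeq table. The rule for pairs past a fold was checked on simulated signals with known ratios. The number of arrays, 1 per dose, limits the precision.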

Additional observations from a re-analysis of the deposited data

How the results depend on the processing

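With 1 array per dose, nothing here has a replicate error, and no paired analysis was possible because each dose has 1 sample and no result comes from a test. The causes of the shifts below were not tested. The 26 detected members became 38 at the 90th and 17 at the 99th percentile of the mismatch probes, and 22 at the 95th percentile of the virus and worm probes. Counts of dimmer pairs (4) became 7 at a looser threshold of 0.32 log2 units, 2 at 2-fold, 8 with the mismatch median subtracted and 1 when both probes had to be detected. Leaving out 1 array gave 4 to 5, the 5 being without the 1 nM array, where mmu-miR-99a passed. Counts of brighter pairs (1) became 2 at the looser threshold, with normexp, with normexp and quantile normalization and with the mismatch median subtracted, and 0 when both probes had to be detected. Leaving out 1 array gave 1 to 2, the 2 being without the 1 nM array, where mmu-miR-134 passed. The median pair ratio, −0.0123, was 0.0274 when both probes had to be detected and 0.0113 with the value table's limit, an alternative chosen after seeing the data. Without 1 array it lay between −0.0488 and −0.0042.

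Members 1.5-fold higher at 0.1 nM (0) became 1 with no scaling and 5 at the looser threshold. At 1 nM (1) there were 2 with median scaling, 3 with no scaling, 2 with centring on the detected probes (chosen after seeing the data), 4 at the looser threshold and 0 at 2-fold. At 10 nM (2) there were 11 with median scaling, 11 with no scaling, 0 with cyclic loess, 1 with no background correction, 1 with centring and 0 at 2-fold. The shares of all detected probes under these alternatives are not given, so no such count sets the members apart. Members 1.5-fold lower at 1 nM (1) became 0 with median scaling, no scaling, cyclic loess, no background correction, centring and 2-fold. At 10 nM (1) there were 0 with median scaling, no scaling and 2-fold, and 3 at the looser threshold. The members' median log2 ratio at 0.1 nM (0.0447) was 0.2276 with median scaling, 0.2509 with no scaling and 0.0637 with centring. At 1 nM (0.0719) it was 0.2306, 0.267, 0.1004 with centring and 0.089 with cyclic loess. At 10 nM (0.0699) it was 0.5219, 0.5447 and 0.1359 with centring. Pairs with a ratio higher at 10 nM than untreated (1) became 2 at the looser threshold and 0 at 2-fold. Pairs with a lower one (2) became 1 with normexp and quantile normalization and 0 at 2-fold.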

Other observations

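Some pairs with neither probe above the limit on any array are given as values only. They were chosen after their values were seen, and no difference between undetected probes is established. mmu-miR-411 had 87.5, 125.75, 127 and 135.5 units at 0, 0.1, 1 and 10 nM, against 86.75, 84.25, 82 and 72 for the human probe. rno-miR-376b had 86.25, 123.25, 131.75 and 135.75 units and mmu-miR-376b 92.25, 110.75, 107.25 and 119, against 80.25, 76.75, 84 and 72.5 for human miR-376b. The mismatch partners of mmu-miR-411 and mmu-miR-376b stayed between 70.5 and 80 units.

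rno-miR-381 had 85.75, 81.25, 84 and 71 units, against 114.25, 130.5, 118.5 and 137.5 for the human probe, with both probes under the limit. Human miR-489, also chosen after its values were seen and undetected at 98.75 to 111 units, had a mismatch probe that read 184, 225.5, 233.5 and 311 units.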
